A study of Mus musculus with 24 samples.

Results

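GABA-A receptor subunit genes were followed in the left brain hemisphere of 24 mice, starting from Gabra2, whose mRNA was lower in Nox2 knockout than in wild type animals. The set held 7 genes found by symbol in the deposited gene counts, namely Gabra2, Gabra3, Gabra4, Gabra5, Gabrb1, Gabrb2 and Gabrd. They are 7 of the 16 GABA-A receptor subunit genes described here, among 55421 genes in the table, and all 7 passed the filter on low counts that kept 14380 genes. Of the other 9 subunit genes, 4 passed it. Gabra2 was taken because of its genotype difference in these same libraries, and the other 6 were listed beside it with results of these data known. Genotype differences of the 7 genes are therefore given as a description, with standard errors and intervals and without a test.

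GABA-A receptors are pentameric chloride channels that open when they bind GABA, the main inhibitory transmitter of the brain. Most contain alpha and beta subunits, which form the GABA binding sites, together with a gamma or a delta subunit. The alpha subunit helps to set where a receptor sits and which drugs it binds. With some but not all gamma subunits, receptors with alpha-2 or alpha-3 are mainly synaptic and bind classical benzodiazepines. In contrast, alpha-4 or alpha-6 with delta give extrasynaptic receptors that carry tonic inhibition. Gabra2 mRNA is known to differ between substrains of C57BL/6 mice.

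The animals fell into 4 groups of 6, with 1 library per animal. Knockout LPS and wild type LPS mice received lipopolysaccharide (LPS, from the outer membrane of gram-negative bacteria) at 1 µg per g body weight per day by intraperitoneal injection on 4 days, and knockout PBS and wild type PBS mice received phosphate-buffered saline in its place. Each injection was 100 µl, all animals were 3 months old, and all libraries carry the strain label C57BL/6J. The knockout lacks Nox2 (gp91phox, gene Cybb), the membrane-bound catalytic core of the NADPH oxidase of phagocytes; the labels restrict it to no cell type. RNA came from the homogenised hemisphere, and the QuantSeq 3′ method gave tags near the 3′ end of polyadenylated transcripts. Since 1 tag stands for about 1 transcript whatever its length, tag levels of different subunits are set side by side below, with the limit that a transcript ending outside its annotated gene would be missed.

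Libraries held 2340184 to 5256169 counts. Levels are CPM, counts divided by the TMM-scaled library size, where 1 CPM stood for 2.31 to 5.20 counts. Cybb tags were higher in libraries labelled knockout, at 67.5 to 77.3 CPM after LPS and 63.1 to 76.2 CPM after PBS, against 15.7 to 34.0 CPM in wild type LPS and 0.853 to 2.50 CPM in wild type PBS libraries. Tags at the 3′ end do not show whether a deleted part of Cybb is missing, so the genotype directions below rest on the labels. In the wild type LPS group, replicates 1 and 2 stood apart from the other 4. The chi-square per degree of freedom over genes was 1.87 between them, 3.00 to 5.04 between them and the other 4, and 1.75 to 3.24 among the other 4.

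Gabra2 encodes the alpha-2 subunit and lies at chr5:70957597-71095849 on the minus strand of GRCm38. It is part of a cluster of GABA-A genes, with Gabrg1 (gamma-1) at chr5:70751047-70842617, Gabra4 (alpha-4) at chr5:71569749-71658308 and Gabrb1 (beta-1) at chr5:71658113-72149037. The 250 bases upstream of the RefSeq transcript start (GRCm38.p6) are shown for Gabra2 and for Gabrg1, its nearest subunit neighbour on the same strand. They are reference sequence, not that of these mice, and a part of upstream sequence in the genotype difference was not tested. The sequences run 5′ to 3′ on the minus strand, from chr5:71095850-71096099 and chr5:70842618-70842867, with CG dinucleotides in capitals.
Gabra2: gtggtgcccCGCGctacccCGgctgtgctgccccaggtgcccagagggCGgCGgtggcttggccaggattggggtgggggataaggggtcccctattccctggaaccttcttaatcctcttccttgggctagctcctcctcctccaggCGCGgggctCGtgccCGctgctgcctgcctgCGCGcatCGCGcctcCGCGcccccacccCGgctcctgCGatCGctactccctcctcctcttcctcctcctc
Gabrg1: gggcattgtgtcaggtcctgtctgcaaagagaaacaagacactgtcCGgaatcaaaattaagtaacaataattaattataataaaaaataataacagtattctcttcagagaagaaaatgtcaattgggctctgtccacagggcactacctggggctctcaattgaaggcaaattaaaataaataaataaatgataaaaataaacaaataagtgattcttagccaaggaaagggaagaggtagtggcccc
The Gabra2 window was 70% G or C and held 18 CG dinucleotides, where the median over 32851 RefSeq windows of this length was 6. The Gabrg1 window was 35.6% G or C and held 1.

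RefSeq windows were found for 6 of the 7 genes, with more than 1 start for Gabra3, Gabrb1 and Gabrb2. The Gabra4 window, on the minus strand beside the divergent Gabrb1 gene, held 12 CG dinucleotides, and the Gabra5 window held 9. Of the Gabrb1 windows, 1 held 18, as many as that of Gabra2, and the other held 6. The Gabrb2 windows held 8, 8 and 4, and both Gabra3 windows held none. The letters TATAAA were searched on both strands and occurred in both Gabra3 windows and in 1 of 3 Gabrb2 windows. They occurred in 12.4% of all windows. The letters TGACGTCA, found in 1.55% of all windows, and GCGTGGGCG, found in 0.536%, were in none of the windows of these genes, nor in that of Gabrg1.

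Gabra2 was lower in knockout libraries after both injections. Single libraries held 42.2, 46.3, 42.7, 45.1, 53.7 and 50.5 CPM in knockout LPS mice, against 122.7, 103.2, 103.5, 101.2, 98.7 and 103.4 CPM in wild type LPS mice. After PBS they held 51.2, 44.3, 50.5, 60.2, 54.8 and 47.7 CPM in knockouts, against 107.8, 109.8, 117.3, 120.6, 115.2 and 116.4 CPM in wild type mice. The highest of the 12 knockout libraries lay below the lowest of the 12 wild type libraries. The log2 fold change of knockout over wild type was -1.18 ± 0.07 after LPS (SE, 95% interval -1.32 to -1.04) and -1.15 ± 0.07 after PBS (95% interval -1.29 to -1.01). These are ratios of 0.442 and 0.451. The values rest on 118 to 267 Gabra2 counts in a knockout library and 269 to 573 in a wild type library.

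**Figure D1:**
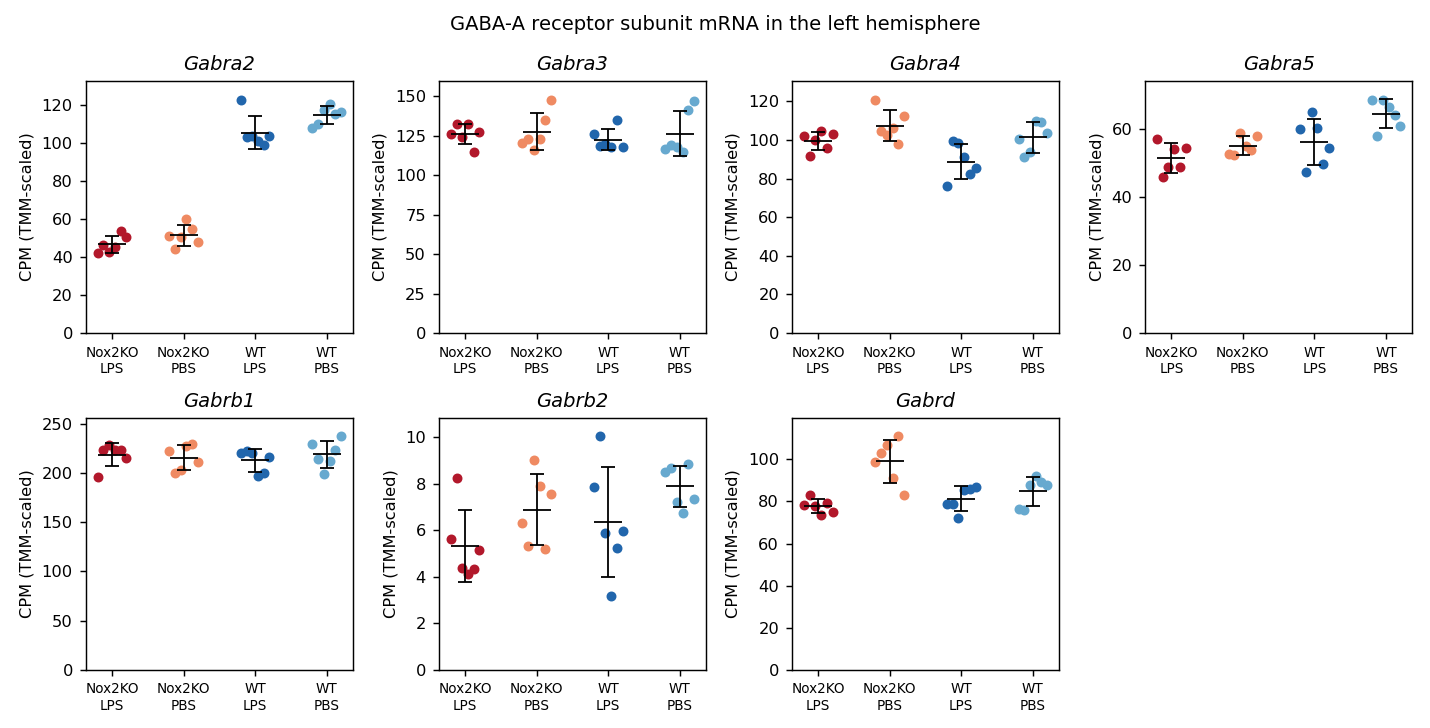
Level of each of the 7 subunit genes (vertical axes, TMM-scaled CPM from 0) in the 4 groups (horizontal axes), with a point per library and a bar for the mean ± SD of 6 libraries. Gabra2 separates the genotypes, at 42.2 to 60.2 CPM in knockout and 98.7 to 122.7 CPM in wild type libraries, while the genotypes overlap for the other 6 genes.

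None of the other 6 genes showed a genotype difference of the size seen for Gabra2. Gabra3 (alpha-3, found on monoaminergic and reticular thalamic neurons) averaged 126.1 ± 6.43 CPM in knockout LPS and 127.4 ± 11.8 CPM in knockout PBS libraries, against 122.4 ± 6.85 CPM in wild type LPS and 126.1 ± 14.2 CPM in wild type PBS libraries (SD, n = 6 each). Its genotype log2 fold changes were 0.04 ± 0.06 after LPS and 0.02 ± 0.06 after PBS (SE). Gabra4, which pairs with delta in thalamus and dentate gyrus, averaged 99.4 ± 4.86 and 107.4 ± 8.09 CPM in knockout LPS and PBS libraries, against 88.8 ± 9.25 and 101.3 ± 7.89 CPM in wild type LPS and PBS libraries. The Gabra4 differences were above zero, at 0.16 ± 0.07 after LPS (95% interval 0.03 to 0.29) and 0.09 ± 0.06 after PBS (-0.04 to 0.21), the side opposite to Gabra2.

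Gabra5 (alpha-5, largely extrasynaptic and best known from the hippocampus) was below zero after both injections, as was Gabrb2. Knockout LPS libraries held 45.9 to 56.97 CPM with a median of 51.4, against 47.4 to 65.2 CPM with a median of 57.2 in wild type LPS libraries. Knockout PBS libraries held 52.3 to 59.0 CPM with a median of 54.4, against 58.1 to 68.6 CPM with a median of 65.3 in wild type PBS libraries. The groups overlapped after both injections, after PBS in the range from 58.1 to 59.0 CPM. The log2 fold change was -0.12 ± 0.07 after LPS (95% interval -0.27 to 0.03) and -0.23 ± 0.07 after PBS (-0.37 to -0.09), or ratios of 0.919 and 0.853.

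Neither beta subunit had a genotype difference of the size seen for Gabra2, though both Gabrb2 values were below zero with wide intervals. Gabrb1 had the highest tag level of the 7 genes, at 218.7 ± 11.6 and 215.8 ± 12.6 CPM in knockout LPS and PBS libraries, against 213.0 ± 11.4 and 219.3 ± 13.8 CPM in wild type LPS and PBS libraries. Its genotype log2 fold changes were 0.04 ± 0.05 after LPS and -0.02 ± 0.05 after PBS, with 95% intervals inside -0.12 to 0.14. Gabrb2 (beta-2) had the fewest tags, 13 to 45 counts in a library. Whether Gabrb2 tags were missed outside its annotated gene was not tested, so this low level is not read as its abundance. Gabrb2 averaged 5.30 ± 1.55 and 6.88 ± 1.53 CPM in knockout LPS and PBS libraries, against 6.35 ± 2.35 and 7.88 ± 0.878 CPM in wild type LPS and PBS libraries. The differences of -0.28 ± 0.22 after LPS and -0.20 ± 0.19 after PBS had 95% intervals from -0.72 to 0.16 and from -0.59 to 0.19.

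Gabrd, the delta subunit of extrasynaptic receptors, had genotype differences on different sides of zero. The level was 73.8 to 83.1 CPM with a median of 78.2 in knockout LPS libraries, against 72.0 to 86.8 CPM with a median of 82.1 in wild type LPS libraries. After PBS it was 83.1 to 110.9 CPM with a median of 100.9 in knockout libraries, against 75.7 to 92.2 CPM with a median of 87.9 in wild type libraries. The groups overlapped after each injection, with 4 of 6 knockout PBS libraries above the highest wild type PBS library. The log2 fold change was -0.06 ± 0.07 after LPS (95% interval -0.20 to 0.07) and 0.23 ± 0.07 after PBS (0.10 to 0.36).

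Across all genes, 1.05% were called in either direction between genotypes after LPS and 0.132% after PBS, at an adjusted p under 0.05 (edgeR quasi-likelihood test, Benjamini-Hochberg). The lower calls alone were 0.786% and 0.0904% of genes. Of the 7 genes, 1, Gabra2, was among the lower calls in each comparison. Because Gabra2 was chosen on this contrast, nothing is read from that count. Groups that do not overlap, with all 6 knockout libraries below all 6 wild type libraries, occurred for 0.389% of genes after LPS and 0.188% after PBS, and for 1 of the 7 genes, Gabra2, in each case. Wild type LPS replicate 1 held the highest Gabra2 level; without replicates 1 and 2 of that group the set had the same single lower call in each genotype comparison.

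**Figure D2:**
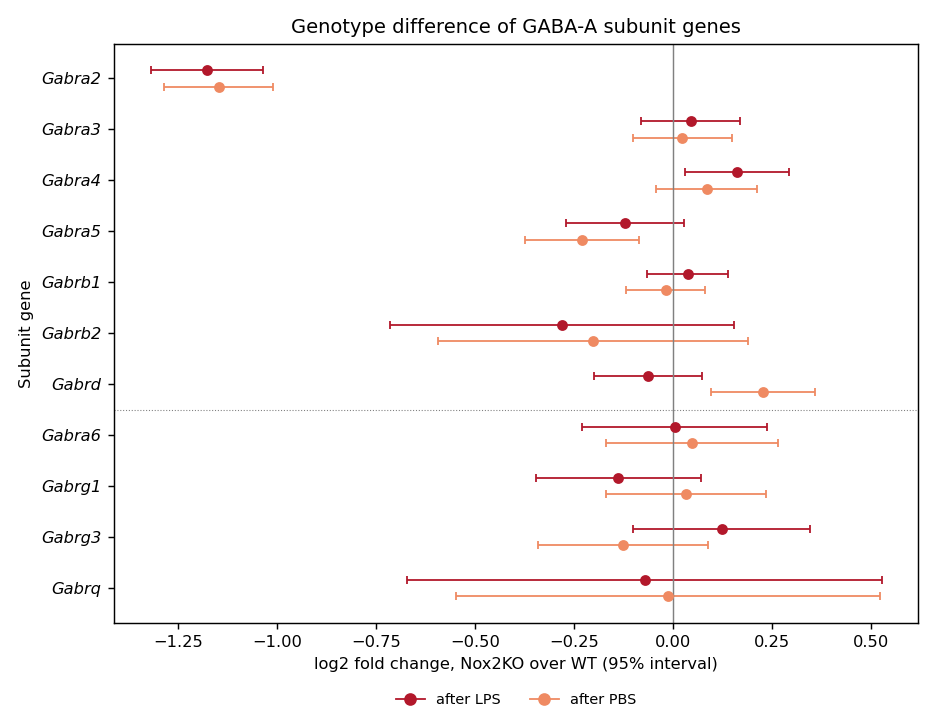
Log2 fold change of knockout over wild type (horizontal axis, with 95% interval) after LPS and after PBS for 11 GABA-A subunit genes that passed the filter; the dotted line parts the 7 genes of the set from the 4 others. Gabra2 stands at -1.18 and -1.15, and the other 10 genes lie between -0.28 and 0.23.

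The 4 other subunit genes that passed the filter, Gabra6, Gabrg1, Gabrg3 and Gabrq, were tested, with the limit that they are what the choice of the set, made with results known, did not take. None was called between genotypes, with adjusted p from 0.664 to 0.995 after LPS and from 0.801 to 0.995 after PBS (edgeR). At an unadjusted p under 0.05, 0 of 4 passed in either comparison, and DESeq2 also called 0 of these 4. Gabra6 (alpha-6) differed by 0.0042 ± 0.12 after LPS and 0.05 ± 0.11 after PBS; the value after LPS was below zero in DESeq2, at -0.0013. Gabrg3 (gamma-3) held 18.7 ± 2.82 and 18.9 ± 1.71 CPM in knockout LPS and PBS libraries, against 17.4 ± 2.03 and 20.8 ± 2.34 CPM in wild type LPS and PBS libraries. Its log2 fold changes were 0.12 ± 0.11 after LPS and -0.13 ± 0.11 after PBS, within the spread of the libraries. The widest 95% intervals belonged to Gabrq (theta), with 5 to 23 counts in a library, and ran from -0.67 to 0.53 after LPS.

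The 5 subunit genes that failed the filter were Gabre (epsilon), Gabrp (pi) and the rho genes Gabrr1, Gabrr2 and Gabrr3, whose products form retinal GABA receptors. Over all 24 libraries Gabrr2 had 90 counts, Gabre 57, Gabrr1 18, Gabrp 4 and Gabrr3 1. A change of these genes was not detectable at this depth.

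Gabra2 gave a smaller share of the alpha subunit tags in knockouts. Of the summed tags of Gabra2, Gabra3, Gabra4, Gabra5 and Gabra6, Gabra2 gave 12.7 ± 1.51% in knockout LPS and 12.9 ± 1.55% in knockout PBS libraries, against 25.2 ± 1.62% in wild type LPS and 24.7 ± 0.978% in wild type PBS libraries (SD, n = 6 each). Exact 95% binomial intervals of single libraries, which cover counting error only, reached from 9.58 to 17.8% over the knockout libraries and from 21.4 to 30.9% over the wild type libraries. These shares rest on the Gabra2 values that chose the set and are a description. Gabra3 gave 34.3 ± 1.32% and 31.7 ± 1.95% in knockout LPS and PBS libraries, against 29.3 ± 1.93% and 27.2 ± 2.50% in wild type LPS and PBS libraries. A share of other genes must go up when 1 gene goes down, so the summed levels are the fairer comparison. The 4 genes other than Gabra2 summed to 321.6 ± 15.7 CPM in knockout LPS and 349.4 ± 17.9 CPM in knockout PBS libraries, against 312.1 ± 8.52 CPM in wild type LPS and 348.7 ± 18.5 CPM in wild type PBS libraries. With Gabra2 the 5 genes summed to 368.3 ± 13.7 and 400.9 ± 16.4 CPM in knockout LPS and PBS libraries, against 417.5 ± 11.8 and 463.2 ± 20.9 CPM in wild type LPS and PBS libraries.

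**Figure D3:**
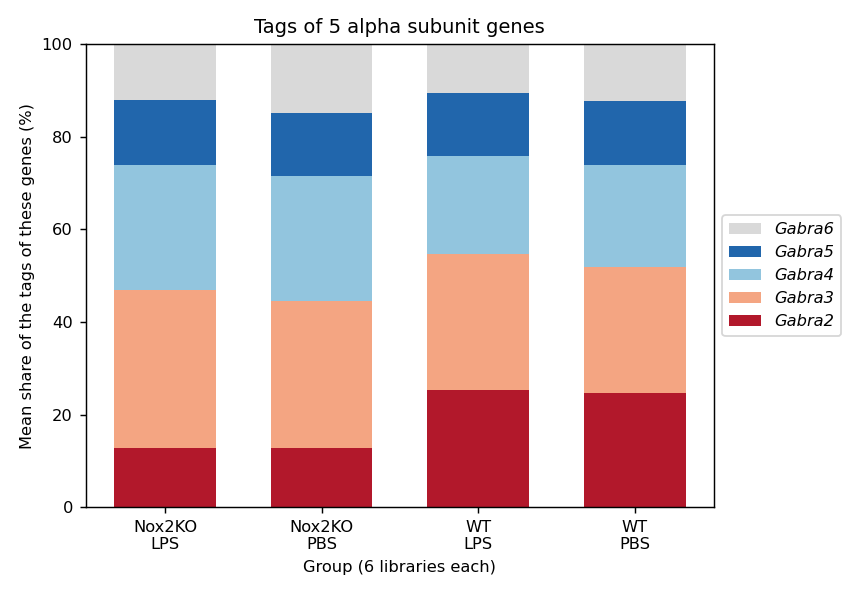
Mean share of each of 5 alpha subunit genes in their summed tags (vertical axis, percent) in the 4 groups of 6 libraries. The Gabra2 segment is 12.7% and 12.9% in the knockout groups, against 25.2% and 24.7% in the wild type groups.

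The order of the tag levels differed between genotypes, with the limit that tags outside an annotated gene are missed. In wild type PBS libraries the mean level fell in the order Gabrb1, Gabra3, Gabra2, Gabra4, Gabrd, Gabra5 and Gabrb2. The ranges of Gabra3 and Gabra2 overlapped there, as did those of Gabra2 and Gabra4 and those of Gabra4 and Gabrd. In knockout PBS libraries Gabra2, at 51.5 ± 5.52 CPM, came after Gabra5, at 55.1 ± 2.82 CPM, with overlapping ranges. Gabrb1 at the top and Gabrb2 at the bottom did not overlap with their neighbours in any group.

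Genes around Gabra2 were examined because 3 other subunit genes share its cluster. Within 3 Mb on either side, 101 genes are annotated and 28 passed the filter. Apart from Gabra2, Gabra4 and Gabrb1, whose differences are described above, 0 of the 25 others were called between genotypes by edgeR, with lowest adjusted p of 0.295 after LPS and 0.577 after PBS. At an unadjusted p under 0.05, 2 of the 25 passed after LPS, where 11.4% of all genes did, and 0 after PBS, where 8.73% did. Gabrg1 held 26.9 ± 3.85 and 29.8 ± 4.69 CPM in knockout LPS and PBS libraries, against 29.6 ± 4.10 and 28.8 ± 1.91 CPM in wild type LPS and PBS libraries. Its log2 fold changes were -0.14 ± 0.10 after LPS and 0.03 ± 0.10 after PBS.

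**Figure D4:**
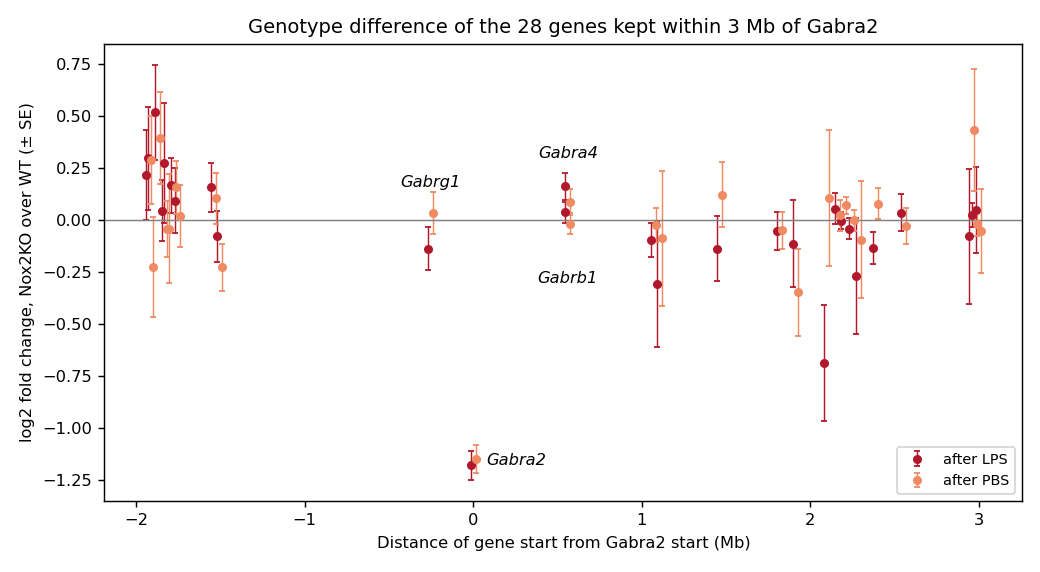
Log2 fold change of knockout over wild type (vertical axis, ± SE) after LPS and after PBS for the 28 genes within 3 Mb of Gabra2, by distance of the gene start from the Gabra2 start in Mb (horizontal axis). Gabra2 stands alone at -1.18 and -1.15, while the 27 others lie between -0.69 and 0.52.

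Overlap with the genes searched did not separate Gabra2 from its family. The search covered the genes of the set and all annotated genes that are not protein-coding. It found none over Gabra2, Gabrb2 or Gabrd, and other protein-coding genes were not searched. Gabra4 and Gabrb1 overlap at their 5′ ends, and Gabra5 overlaps an antisense gene with 239 counts over all libraries. The strand setting of the counting is not given in the sources used here, so reads of overlapping genes cannot be told apart. Of the 50-base words in the last 600 bases of the annotated transcripts, 0 of 2706 for Gabra2 occurred in another gene, and Gabra3 shared 8 of 1628.

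The genes whose pattern over the 24 libraries was most like that of Gabra2 were Ndn, Wdfy1, Cdkn1a, Pacsin2 and Crhbp. Likeness is the root mean square difference in log2 CPM after centring each gene on its mean, and 12589 named genes with at least 2 CPM were ranked. It was 0.271 for Ndn, 0.347 for Wdfy1, 0.436 for Cdkn1a, 0.446 for Pacsin2 and 0.450 for Crhbp, against a median of 0.629 over all candidates. The nearest member was Gabra5 at 0.520 and rank 80, and the others ranked from 3040 (Gabrb1) to 8942 (Gabra4). Ndn averaged 99.5 and 109.8 CPM in knockout LPS and PBS libraries, against 161.8 and 180.3 CPM in wild type LPS and PBS libraries. As these genes were picked for likeness to Gabra2 over the same libraries, their genotype differences carry no test.

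Wdfy1 is also on a short list of genes known to differ between C57BL/6 substrains. Of its 6 genes, 3 passed the filter, and 1, Wdfy1, was called between genotypes. Over all genes, 1.05% were called after LPS and 0.132% after PBS. Because Wdfy1 was also picked for likeness to Gabra2, nothing is read from that call, and its values are a description. Wdfy1 averaged 17.6 and 17.1 CPM in knockout LPS and PBS libraries, against 59.1 and 58.5 CPM in wild type LPS and PBS libraries. The log2 fold change was -1.76 ± 0.08 after LPS and -1.78 ± 0.08 after PBS (SE). Ide and Fgfbp3 were not called. Nnt, also on the list, has more than 1 identifier, of which only the first was used, and that one did not pass the filter. With the same strain label on all libraries, the knockout allele and other genetic differences between the 2 lines of mice cannot be told apart.

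Markers of other tissue moved with genotype. The 7 olfactory bulb and nerve markers were all below zero in knockouts. Of these, edgeR called 4 lower after LPS, where 0.786% of all genes were, and 3 after PBS, where 0.0904% were. The calls after LPS were Omp, S100a5, Eomes and Cdhr1, and after PBS Omp, S100a5 and Doc2g. Omp, the marker protein of mature olfactory sensory neurons, averaged 0.506 and 0.581 CPM in knockout LPS and PBS libraries, against 3.89 and 8.39 CPM in wild type LPS and PBS libraries (edgeR adjusted p = 0.0366 after LPS and 0.000451 after PBS). Cdhr1 averaged 2.92 and 4.70 CPM in knockout LPS and PBS libraries, against 9.70 and 12.1 CPM in wild type LPS and PBS libraries (adjusted p = 0.00586 after LPS). None of the 7 was without counts in any group. Their summed level was 15.7 to 22.7 CPM in knockout LPS and 16.8 to 29.6 CPM in knockout PBS libraries, against 19.2 to 71.3 CPM in wild type LPS and 19.8 to 102.0 CPM in wild type PBS libraries. The 3 wild type libraries with sums inside the range of the knockouts, of 24.2, 19.2 and 19.8 CPM, were LPS replicates 1 and 2 and PBS replicate 4. Their Gabra2 levels were 122.7, 103.2 and 120.6 CPM, and the other 9 wild type libraries held 98.7 to 117.3 CPM. These LPS replicates are the libraries that stand apart over all genes. The part of the olfactory markers in the Gabra2 difference was not tested. In bulk tissue, fewer cells of a type and less RNA per cell cannot be told apart.

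Of the inhibitory interneuron markers, 13 of 14 were below zero in knockouts after LPS (median -0.18) and 11 of 14 after PBS (median -0.12). After LPS, 2 of 14 were called lower, where 0.786% of all genes were, Dlx1 at -0.80 ± 0.16 (adjusted p = 0.00405) and Npy at -0.27 ± 0.06 (adjusted p = 0.0256, edgeR), and after PBS 0 of 14 were called, with 3 at an unadjusted p under 0.05. Their summed level was 1092 to 1224 CPM in knockout LPS and 1271 to 1384 CPM in knockout PBS libraries, against 1208 to 1327 CPM in wild type LPS and 1324 to 1426 CPM in wild type PBS libraries. The pan-neuronal markers had 0 of 7 called in both genotype comparisons, with 1 at an unadjusted p under 0.05 after LPS and 0 after PBS. The 8 cerebellar markers, which include Gabra6, had 0 called in both genotype comparisons, with 2 at an unadjusted p under 0.05 in each. After PBS 0 of the 8 were below zero (median 0.07), and after LPS 3 were (median 0.0026). The part of these markers in the genotype differences of Gabra2, Gabrd or other subunit genes was not tested.

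The rest of the GABA system showed no called genotype difference. The lists of GABA synthesis, packaging, uptake and breakdown, of the GABA-B receptor, of receptor anchoring and trafficking, and of chloride cotransporters held 30 genes described here, of which 29 were tested. After LPS 0 of 29 were called by edgeR and 4 had an unadjusted p under 0.05, and after PBS 0 were called and 7 had one; over all genes, 11.4% and 8.73% did. After PBS the lowest p among these was that of Gad1, which makes GABA from glutamate, at -0.20 ± 0.06 (adjusted p = 0.304, edgeR). Next came Slc32a1, on the other side at 0.15 ± 0.06 (adjusted p = 0.450), and Gad2 at -0.13 ± 0.06 (adjusted p = 0.496). Of the 7 with an unadjusted p under 0.05 after PBS, 5 were lower in knockouts. Gphn, the scaffold gephyrin that anchors receptors at the synapse, differed by -0.17 ± 0.08 after PBS (adjusted p = 0.517) and 0.06 ± 0.08 after LPS (adjusted p = 0.842).

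LPS lowered a few subunit genes modestly. The set was built around the genotype difference of Gabra2, but it was listed with results of these data known, and whether LPS changes played a part in listing the other 6 genes is not known. In knockout mice LPS called 10.9% of all genes, 7.05% higher and 3.82% lower. Of the 7 genes of the set, 0 were higher and 1, Gabrd, was lower. Gabrd fell to 77.9 ± 3.32 CPM in knockout LPS mice, against 99.0 ± 10.4 CPM in knockout PBS mice, a log2 fold change of -0.35 ± 0.07 (edgeR adjusted p = 0.00011). All 6 knockout LPS libraries were below the mean of the knockout PBS libraries, and the groups overlapped only in that the highest LPS and the lowest PBS library both held 83.1 CPM. Of the 4 other subunit genes, 0 were higher and 1, Gabra6 (alpha-6, of cerebellar granule cells), was lower. Gabra6 averaged 44.5 ± 7.89 CPM in knockout LPS libraries, against 59.5 ± 10.02 CPM in knockout PBS libraries, with overlapping ranges (-0.41 ± 0.11, adjusted p = 0.0088).

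In wild type mice LPS called 18.1% of all genes, 10.9% higher and 7.12% lower. Of the 7 genes, 0 were higher and 2, Gabra4 and Gabra5, were lower. Gabra4 averaged 88.8 ± 9.25 CPM in wild type LPS libraries, against 101.3 ± 7.89 CPM in wild type PBS libraries (log2 fold change -0.18 ± 0.06, adjusted p = 0.043, edgeR). Gabra5 averaged 56.2 ± 6.80 CPM after LPS, against 64.4 ± 4.26 CPM after PBS (-0.20 ± 0.07, adjusted p = 0.049). Both calls lie close to the threshold and the groups overlap; Gabra4 lost its call in 8 of the 24 fits that left out 1 library, all of them wild type, and Gabra5 in 10, of which 3 left out a knockout library. Without wild type LPS replicates 1 and 2 the adjusted p was 0.061 for Gabra4 and 0.13 for Gabra5.

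Outside the set, 1 of the 4 other subunit genes fell with LPS in wild type mice and 0 rose. Gabra6 averaged 44.7 ± 7.73 CPM after LPS, against 56.8 ± 9.05 CPM after PBS, with overlapping ranges (-0.37 ± 0.11, adjusted p = 0.015, edgeR). It lost its call without wild type LPS replicate 3 (adjusted p = 0.051) or wild type PBS replicate 4 (0.056). Without wild type PBS replicate 4, 0 of the 11 subunit genes were called in wild type mice by edgeR, and 1 was called without wild type LPS replicate 6, wild type PBS replicate 1 or wild type PBS replicate 5. Groups with LPS entirely below PBS occurred for 2.06% of all genes in wild type and 1.72% in knockout mice, and for 0 of these 11 in either genotype.

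Gabra2 itself was not called for LPS in either genotype. The log2 fold change was -0.15 ± 0.08 in knockouts (adjusted p = 0.24, 95% interval -0.30 to 0.00) and -0.12 ± 0.06 in wild type mice (adjusted p = 0.19, -0.25 to 0.01, edgeR). Gabrb2 had larger values with wide errors, -0.40 ± 0.21 in knockouts (adjusted p = 0.26) and -0.33 ± 0.20 in wild type mice (adjusted p = 0.28). Gabra3 and Gabrb1 had values between -0.04 and 0.02 in both genotypes. In each genotype 10 of the 11 subunit genes had values below zero. Their median was -0.13 in knockout and -0.18 in wild type mice, where the medians over all genes tested were -0.0015 and -0.0088.

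**Figure D5:**
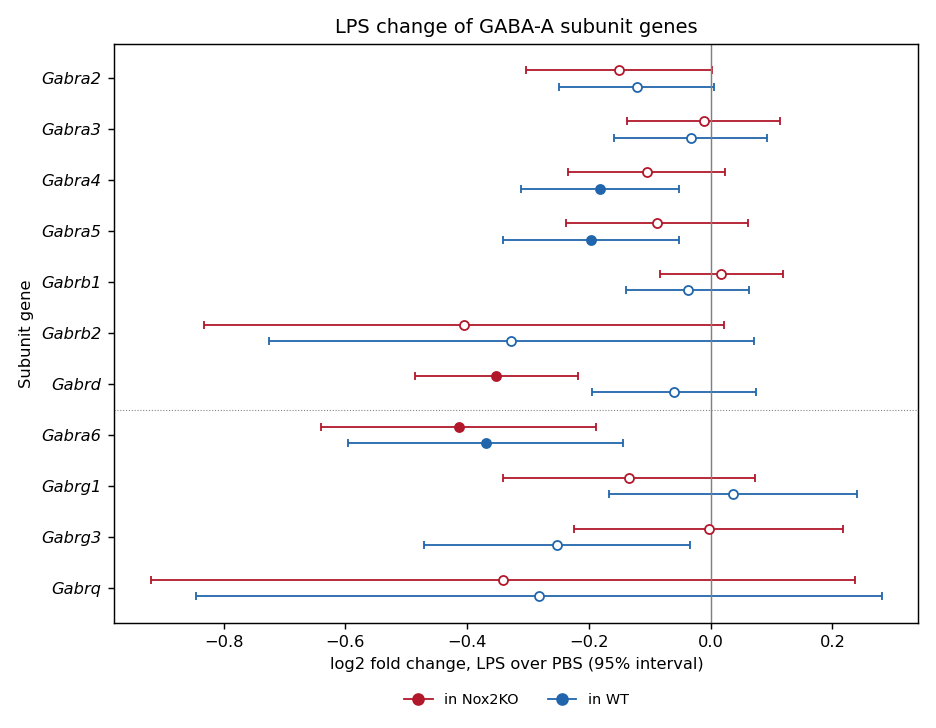
Log2 fold change of LPS over PBS (horizontal axis, with 95% interval) in knockout and wild type mice for 11 subunit genes that passed the filter; filled points were called at an adjusted p under 0.05 (edgeR), and the dotted line parts the set from the 4 others. Gabrd is filled in knockouts at -0.35, Gabra4 and Gabra5 in wild type mice at -0.18 and -0.20, and Gabra6 in both at -0.41 and -0.37.

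The LPS changes were not shown to differ between genotypes. For the difference of the LPS changes, knockout minus wild type, edgeR called 1 of 14380 genes (0.00695%) and 0 of the 11 subunit genes, as did DESeq2 for the subunits. Gabrd had the smallest adjusted p of the 7, 0.293, with a difference of -0.29 ± 0.09, and was the 1 of the 7 with an unadjusted p under 0.05. The Gabrd call in knockouts and its absence in wild type mice (-0.06 ± 0.07, adjusted p = 0.61) are thus not a shown difference. For Gabra2 the difference was -0.03 ± 0.10 (95% interval -0.23 to 0.17, adjusted p = 0.96).

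Neuronal and cerebellar markers moved with LPS in the same libraries. The pan-neuronal markers summed to 5636 to 6061 CPM in knockout LPS against 6314 to 6546 CPM in knockout PBS libraries, and to 5580 to 5749 CPM in wild type LPS against 6315 to 6492 CPM in wild type PBS libraries. The groups did not overlap in either genotype, and edgeR called 2 of 7 lower in knockout mice, Syt1 and Stmn2, and 3 of 7 in wild type mice, Syt1, Stmn2 and Snap25. Of the 8 cerebellar markers, among which Gabra6 is counted, 6 were lower in knockout mice, and 4 in wild type mice. Neurod1, Zic1, Car8 and Gabra6 were lower in both, and Cbln1 and Cbln3 were called in knockouts. Of the 14 interneuron markers, 4 were lower in each genotype, Sst and Cck in both. Over all genes, LPS called 3.82% lower in knockout mice and 7.12% lower in wild type mice. The part of these markers in the subunit changes was not tested.

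Some other genes of the GABA system were called with LPS, and the counts of calls are not read as a trait of this system. Of the 29 tested, edgeR called 2 in knockout mice, where 10.9% of all genes were called, and 7 in wild type mice, where 18.1% were. At an unadjusted p under 0.05 there were 12 of 29 in knockout mice, against 21.7% of all genes, and 16 of 29 in wild type mice, against 29.8% of all genes. Gabbr2, a subunit of the GABA-B receptor, was lower in both, with log2 fold changes of -0.19 ± 0.05 in knockouts (adjusted p = 0.012) and -0.16 ± 0.05 in wild type mice (adjusted p = 0.023). Gabarap, which takes part in receptor trafficking, was higher in both, with 0.20 ± 0.06 in knockouts (adjusted p = 0.030) and 0.40 ± 0.06 in wild type mice (adjusted p = 2.41e-06). The other calls were in wild type mice: the palmitoyl transferase Zdhhc3 was higher, and Gad1, Gabarapl2, the trafficking ATPase Nsf and the chloride exporter Slc12a5 were lower, the last with -0.19 ± 0.04 (adjusted p = 0.0011).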

How the data were processed

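The values used are the whole-number counts of tags that the authors deposited for each gene. Reads were handled with bcl2fastq and STAR 2.7.3a against mm10 (GRCm38), per the submitters' processing notes, which also list Subread 2.0.0 with featureCounts, DESeq2 1.26.0 and R 3.6.1. The annotation release, the strand setting and the treatment of reads with several matches were not given in the sources used here. Of 55421 identifiers, 55154 carry a symbol and 267 were kept without one. Positions are from GENCODE M21, promoters from RefSeq GRCm38.p6.

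All 24 libraries (2340184 to 5256169 counts) were fitted together in edgeR 4.0.16 (R 4.3.3), each group having its own mean. The fit used TMM scaling, filterByExpr with a minimum count of 10 and the quasi-likelihood F test, leaving 20 residual degrees of freedom. Benjamini-Hochberg adjustment ran over 14380 genes in each of 5 comparisons; calls needed an adjusted p under 0.05. P-values measure the spread between animals. Alternatives used DESeq2 1.42.0, other scalings and filters, the 12 libraries compared, a replicate block, and fits without single libraries or without both libraries that stand apart.

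The members, the gene lists, the rule for named genes and the libraries that stand apart were chosen with earlier results of these data known. Some genes of these lists are not reported here and were left out of every list and share. Named are all remaining subunit genes, the 5 genes most like Gabra2, and of each list described genes called in the comparison or with the smallest p. Lists not described in the report were counted. Between genotypes the excitatory, striatal, hippocampal, thalamic and oligodendrocyte markers had 0 called in edgeR after both injections (1 to 4 of a list at an unadjusted p under 0.05 in some comparisons); after LPS, astrocyte markers had 1 of 5, microglia markers 1 of 5 and endothelial markers 3 of 5 lower, and after PBS 0. With LPS, in knockout and then wild type mice, endothelial markers had 5 and 5 of 5 higher, microglia markers 4 and 4 of 5 higher, astrocyte markers 2 and 3 of 5 higher and 0 and 1 lower, hippocampal markers 0 and 2 of 5 higher and thalamic markers 0 and 1 of 5 higher; oligodendrocyte markers had 2 and 3 of 5 lower and 1 and 1 higher, excitatory markers 3 and 1 of 7 lower and 0 and 1 higher, and striatal markers 2 and 2 of 8 lower and 0 and 1 higher.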

Additional observations from a re-analysis of the deposited data

Results flagged for a closer look

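Each group of 6 libraries was examined for a library far from the others, by the gap to its nearest neighbour over the range of the group, for the 7 genes in 4 groups. Of 28 such groups, 2 passed the 95% critical value of Dixon, where chance gives about 1 in 20, or 1.4. Wild type LPS replicate 1 held the highest Gabra2 level of its group, 122.7 CPM, with the next at 103.5 CPM (ratio 0.798). It is 1 of the 2 libraries of that group that stand apart over all genes, and without it the genotype difference after LPS was -1.13 on the log2 scale. Knockout LPS replicate 2 held the highest Gabrb2 level of its group, 8.23 CPM, with the next at 5.61 CPM (ratio 0.635).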

How the results depend on the processing

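The Gabra2 genotype difference kept its sign under every alternative, including each left-out library, where it ran from -1.22 to -1.13 after LPS and from -1.20 to -1.11 after PBS. Because Gabra2 was chosen on this contrast and its genotypes did not overlap, nothing is read from the kept sign. The number of subunit genes called with LPS in wild type mice (3 genes) was 1 with only the 12 libraries compared and 0 to 3 over single left-out libraries, and in the other alternatives and comparisons the number kept within 1.5 times. The labels state no pairing of animals by number. Of 36 same-numbered pairs, 2 correlated above 0.1, and the mean r was 0.026, against -0.0051 for pairs of different numbers. Whether libraries share a weak effect by number was not tested. The replicate block changed no count of subunit calls.

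Counts over all genes moved more, and the cause was not tested. For genotype after LPS (151 genes) they were 293 with no filter, 273 with the replicate block, 561 without both wild type LPS libraries that stand apart, and 72 to 289 without single libraries. For genotype after PBS (19 genes) they were 88 with no filter, 33 with only the 12 libraries compared, 39 with the replicate block, 36 without the libraries that stand apart, and 13 to 32 without single libraries. For the difference of LPS changes (1 gene) they were 67 with no filter, 8 with the replicate block, 249 without the libraries that stand apart, 2 in DESeq2, and 1 to 20 without single libraries. With the tags of the 11 subunit genes as denominator the Gabra2 shares were 6.51 and 6.64% in knockout LPS and PBS, against 13.7 and 13.8% in wild type LPS and PBS libraries.

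Signs that turned were of uncalled values, of which some, such as 0.24 for Gabrb2, were not near 0 after turning. For LPS in knockouts, Gabrg3 was 0.00061 with upper quartile factors, 0.0028 with the 5 CPM filter, 0.00019 with 12 libraries and 0.0042 with the replicate block. In DESeq2 Gabra6 was -0.0013 for genotype after LPS and Gabrq was 0.0012 for genotype after PBS. Without the libraries that stand apart, Gabrg1 was -0.020 for LPS in wild type, Gabrq 0.12 for genotype after LPS, and Gabra2 0.020, Gabrb2 0.24, Gabra6 0.10 and Gabrq 0.13 for the difference of LPS changes. Over single left-out libraries the ranges were as follows. For LPS in knockouts Gabra3 ran from -0.037 to 0.031, Gabrb1 from -0.0040 to 0.051 and Gabrg3 from -0.060 to 0.063. For LPS in wild type Gabra3 ran from -0.066 to 0.0074 and Gabrg1 from -0.013 to 0.089. For genotype after LPS Gabra6 ran from -0.074 to 0.098 and Gabrq from -0.23 to 0.043. For genotype after PBS Gabra3 ran from -0.019 to 0.064, Gabrb1 from -0.045 to 0.0023, Gabra6 from -0.011 to 0.12, Gabrg1 from -0.034 to 0.075 and Gabrq from -0.13 to 0.15. For the difference of LPS changes Gabra2 ran from -0.072 to 0.025, Gabra3 from -0.019 to 0.064, Gabrb2 from -0.23 to 0.10, Gabra6 from -0.12 to 0.050 and Gabrq from -0.23 to 0.058.

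The Gabra5 call for LPS in wild type was also lost with the 5 CPM filter (adjusted p = 0.052), with 12 libraries (0.082) and in DESeq2 (0.062), and that of Gabra4 with 12 libraries (0.074). Gabrb2 was called in wild type mice without the libraries that stand apart (-0.65, edgeR adjusted p = 0.025), and Gabrg3 without wild type LPS replicate 5 (-0.31, 0.046). Low counts limit Gabrb2 and Gabrq most, and for the 5 subunit genes below the filter no change could be detected.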
